A study of Mus musculus with 6 samples.

Results

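Tsc22d3 encodes GILZ, the glucocorticoid-induced leucine zipper. The hotspots described here are those of all 6 DNase-seq libraries that overlap the 200 kb window of mm9 from 137000000 to 137200000 on chromosome X, which holds the gene at about 137.074 to 137.135 Mb on the minus strand. DNase I hotspots are stretches of chromatin that the enzyme cuts often. The window holds 82 hotspots of 253044, which merge into 16 regions of 59069. The window was chosen by the hotspot positions and z-scores of these same libraries, because regions listed only after glucocorticoid treatment lie in it. Differences between cells with and without glucocorticoid are therefore given as a description, without a test.

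The cells were macrophages grown from the bone marrow of C57BL/6J mice, and all of them received lipopolysaccharide (LPS), a bacterial cell wall component, for 8 h. The LPS group (2 libraries) received nothing else, the pre-treated group (2 libraries) received the glucocorticoid Dex before LPS, and the late-treated group (2 libraries) received Dex late in the LPS treatment. The dose of Dex, the interval between the agents and the age of the mice are not stated in the sources used. No group without LPS was analysed here, and the labelled cell type was not checked against marker genes, since no table used here places genes in mm9.

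Glucocorticoids enter the cell and bind the glucocorticoid receptor, which then binds DNA at response elements, often far from the genes it regulates. Tsc22d3 is a textbook target of this receptor. Its product GILZ binds and restrains inflammatory transcription factors such as NF-kB and AP-1, and macrophages are among the cells in which this anti-inflammatory action is known.

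RefSeq (GRCm38.p6) gives Tsc22d3 3 start sites, all on the minus strand. The 250 bases before each start are shown because a start is where an accessible region of the gene is usually sought, and they are ordered from the 3' end of the gene to its 5' end. Capitals mark every match, on either strand, to 6 motifs: the glucocorticoid response half-site AGAACA, the AP-1 motif TGANTCA, the E-box CACGTG, the FOXO motif GTAAACA, the TATA box TATAAA and the GC box GGGCGG. None of the matches overlapped another.
Tsc22d3 start 1, chrX:140542669-140542918: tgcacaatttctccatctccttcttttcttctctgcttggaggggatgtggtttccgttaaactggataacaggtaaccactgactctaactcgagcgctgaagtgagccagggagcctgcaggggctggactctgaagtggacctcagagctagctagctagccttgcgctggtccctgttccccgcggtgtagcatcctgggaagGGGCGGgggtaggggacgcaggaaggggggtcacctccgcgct
Tsc22d3 start 2, chrX:140548572-140548821: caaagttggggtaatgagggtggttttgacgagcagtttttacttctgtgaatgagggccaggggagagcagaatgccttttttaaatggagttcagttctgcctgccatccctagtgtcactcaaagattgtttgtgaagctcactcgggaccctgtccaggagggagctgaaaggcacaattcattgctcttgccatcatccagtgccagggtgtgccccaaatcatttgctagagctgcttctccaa
Tsc22d3 start 3, chrX:140600523-140600772: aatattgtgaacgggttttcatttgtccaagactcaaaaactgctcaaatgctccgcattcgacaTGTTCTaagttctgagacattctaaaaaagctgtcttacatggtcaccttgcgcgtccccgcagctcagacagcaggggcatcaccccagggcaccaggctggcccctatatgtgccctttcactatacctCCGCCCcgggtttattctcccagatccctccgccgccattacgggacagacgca

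Start 1 is followed by start 2 after 5.90 kb and by start 3 after 57.9 kb in that build. The stretch before start 1 holds a GC box at -43 to -38, counted from the base before the start. The stretch before start 3 holds a GC box at -54 to -49 and the half-site at -185 to -180, and the stretch before start 2 holds none of the 6 motifs. The palindromic response element, 2 half-sites facing each other across 3 unspecified bases, matched none of the 3 stretches and 0.00913% of 32851 promoter stretches of the same length. The GC box was in 32.7% of those stretches and the half-site in 16.1%. The other shares were 6.75% for the AP-1 motif, 6.02% for the E-box, 3.17% for the FOXO motif and 12.4% for the TATA box. The GC content was 58.4%, 49.2% and 52.4% in the 3 stretches, with a median of 52.4% over all of them. Hotspot positions are in mm9, so hotspot sequences were not used here and the starts were not placed among the hotspots.

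In the Dex libraries the 3' side of Tsc22d3 carried a group of open regions that the LPS libraries listed weakly or not at all. The 16 regions are numbered here in order of position. Regions 1 to 10 lie on the 3' side of the gene, regions 11 to 15 within the gene span or at its edges, and region 16 on the 5' side. All 6 libraries listed 7 of the 16, a share close to the 42.5% of all regions that all 6 listed. Another 4 had a hotspot in each of the 4 Dex libraries and in none of the LPS lists (Dex-only), where the background over all regions was 0.389%. The reverse pattern, both LPS libraries and no Dex library (LPS-only), was seen for 1 region, against 5.18% of all regions. These classes were used when the window was proposed, so nothing is read from the difference to the background. The remaining 4 regions were listed by 2, 2, 3 and 5 libraries.

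**Figure D1:**
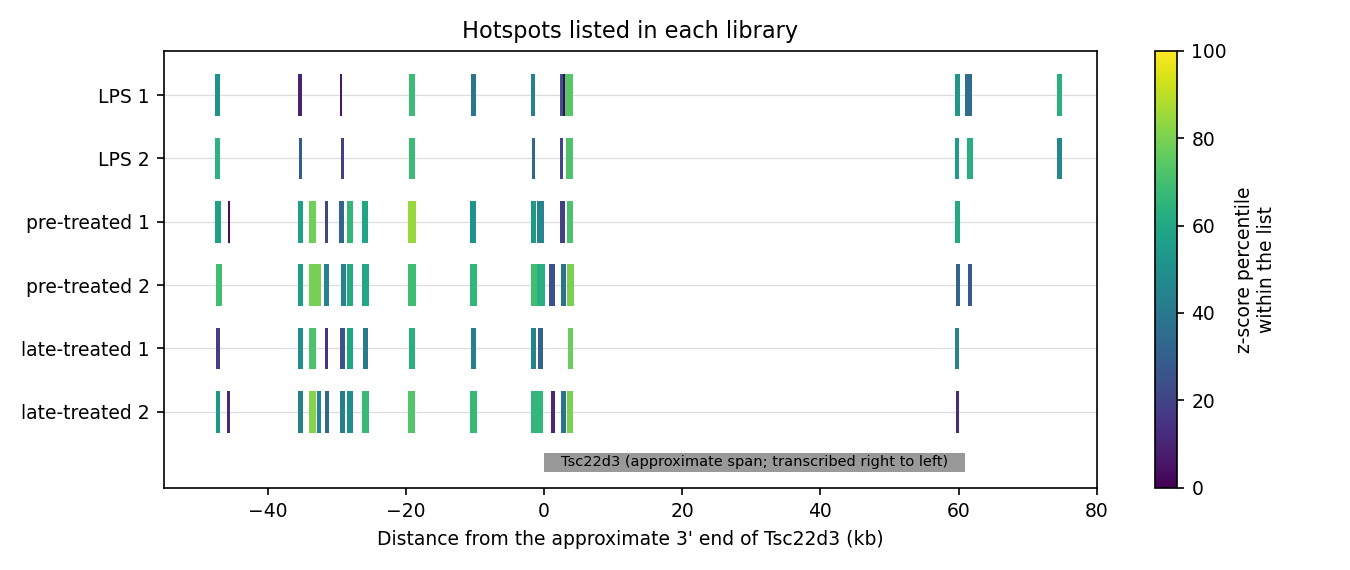
Each row is a library and each block a hotspot, placed by its distance in kb from the approximate 3' end of Tsc22d3 and coloured by its z-score percentile within its list. The cluster between 25.4 and 35.7 kb on the 3' side (left) is dense in the 4 Dex rows, and the 55.1 kb inside the gene are empty in every row.

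Hotspots in the window numbered 12 and 10 with LPS alone, 15 and 16 with Dex before LPS, and 13 and 16 with Dex late. Every Dex library thus listed more hotspots here than either LPS library, although every Dex list is shorter as a whole. This order was lost among the stronger 50% of each list, where the LPS libraries had 5 and 5 hotspots in the window, the pre-treated 10 and 10, and the late-treated 4 and 7. Of each 100000 hotspots in a list, 25.0 and 19.3 lay in the window in the LPS libraries, 43.3 and 35.8 in the pre-treated and 44.3 and 36.0 in the late-treated libraries. The hotspots covered 8038 and 6791 bp under LPS alone, 11536 and 14701 bp with Dex before LPS, and 9292 and 12994 bp with Dex late. The group means were 7414.5 ± 882, 13118.5 ± 2238 and 11143 ± 2618 bp (SD, n = 2 each), and the groups without and with Dex did not overlap. How many other stretches of the genome show this order was not counted. The window was chosen by the hotspot positions of these libraries, so nothing is read from the order.

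The surplus lay in the cluster of regions 3 to 8, a stretch of 10.3 kb from 137038317 to 137048609 that was delimited after its values were seen. Both LPS libraries listed 2 hotspots there, over 728 and 981 bp. With Dex before LPS there were 6 and 6 hotspots over 4540 and 5850 bp, and with Dex late 6 and 7 over 4216 and 5582 bp. The cluster thus held 9.06% and 14.4% of the covered length of the window in the LPS lists, and from 39.4% to 45.4% in those with Dex. Elsewhere in the window the groups overlapped: the LPS libraries covered 7310 and 5810 bp there and the Dex libraries between 5076 and 8851 bp.

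**Figure D2:**
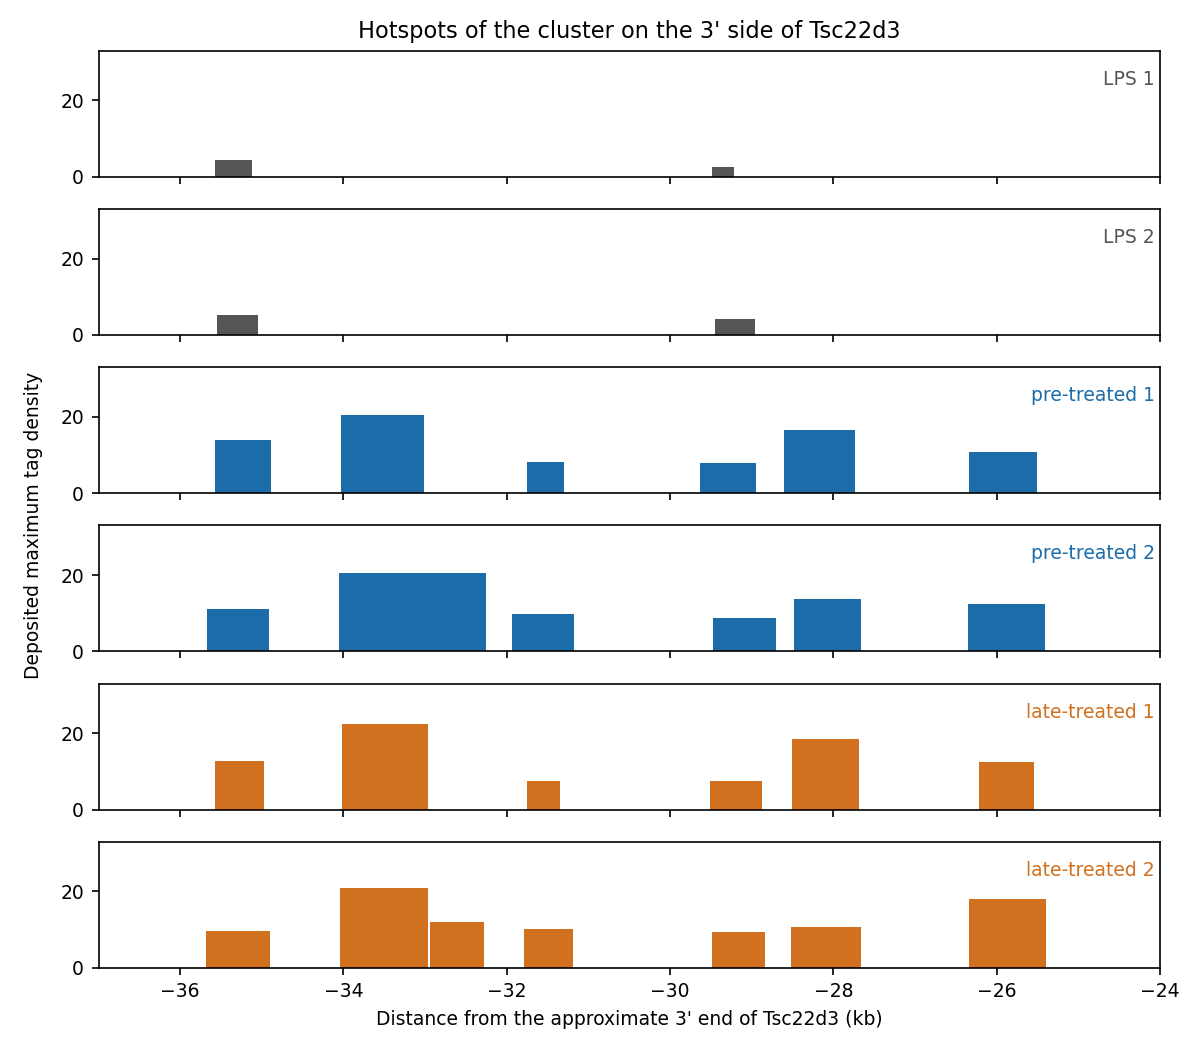
Each panel is a library, each bar a hotspot of the cluster drawn from its start to its end (kb from the approximate 3' end of Tsc22d3), and the bar height is its deposited maximum tag density. The LPS panels hold 2 low bars each, at most 5.21 high, where the highest bars of the Dex panels reach 20.5 to 22.4.

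Region 4, at 137039944 to 137041751, about 32.2 to 34.1 kb beyond the 3' end of the gene, was the strongest Dex-only region of the window. The pre-treated lists gave it z-scores of 44.3 and 38.4 and the late-treated lists 40.6 and 37.8. The z-score compares a hotspot with its own library, so its percentile within the list is given beside it: 78.2, 79.2, 71.8 and 81.3 in the same order, a mean of 77.6 ± 4.11 (SD, n = 4). The 4 libraries lay close together, and neither LPS list held the region although these lists reached down to z-scores of 7.98 and 8.35. Counted from the strongest hotspot of each list, it stood at rank 7561, 9285, 8289 and 8312. Among the 230 Dex-only regions of the genome it was number 8 by mean percentile, where the median region stood at 39.1.

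Its extent differed between libraries more than its strength. Replicate 1 of each Dex group listed a hotspot of 1016 and 1065 bp. Replicate 2 of the pre-treated group listed 1 hotspot of 1807 bp, and replicate 2 of the late-treated group split the same stretch into hotspots of 1087 and 658 bp. The 1014 bp from 137039976 to 137040990 were covered in each of the 4 Dex lists and by no LPS hotspot.

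Region 7, at 137045394 to 137046335, had maximum tag densities of 16.5 and 13.7 in the pre-treated and 18.4 and 10.6 in the late-treated libraries. Region 8, at 137047645 to 137048609, had 10.7, 12.5, 12.4 and 18.2 in the same order. Their mean percentiles were 58.9 ± 6.99 and 56.9 ± 11.3 (SD, n = 4 each), which places them near the middle of the lists. Both are of intermediate strength, and the timing groups overlapped in the deposited density of either.

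Region 5, at 137042069 to 137042826, was the weakest Dex-only region: the pre-treated lists gave it z-scores of 12.1 and 16.8 and the late-treated lists 13.6 and 13.7. Its mean percentile of 28.1 ± 13.4 (SD, n = 4) was below the median of the Dex-only regions. It lay closer to the lower end of the lists than the other Dex-only members, since the Dex lists began at z-scores between 8.98 and 11.6.

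The remaining members of the cluster were listed under LPS alone too, at low strength. At region 3, at 137038317 to 137039106, the maximum tag density was 4.35 and 5.21 in the LPS libraries, 14.0 and 11.01 in the pre-treated and 12.8 and 9.74 in the late-treated libraries. At region 6, at 137044361 to 137045298, it was 2.68 and 4.17 under LPS alone, 7.82 and 8.73 with Dex before LPS, and 7.60 and 9.30 with Dex late. Every Dex value at these regions was above both LPS values. However, no Dex hotspot anywhere in the window had a maximum density as low as 5.21, the highest of these LPS values. Any Dex hotspot listed here would thus tend to lie above them, and how far the lower end of the Dex lists sets this order was not tested. The LPS hotspots of region 6 stood at z-scores of 8.57 and 10.4, just inside lists that began at 7.98 and 8.35, so that whether region 6 counts as shared or Dex-only turns on the lower end of the LPS lists. With a common minimum z-score of 11.6 for all libraries it was Dex-only.

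Between the cluster and the gene lie regions 9 and 10. Region 9, at 137054340 to 137055446, was strong in every library, at a z-score of 27.0 and 24.5 with LPS alone, 57.7 and 29.0 with Dex before LPS, and 31.997 and 29.4 with Dex late. Replicate 1 of the pre-treated group stood far above the rest, at a maximum density of 37.9 where the other 3 Dex libraries had 16.7 to 22.1 and the LPS libraries 12.04 and 11.1. Region 10, at 137063299 to 137064262, was listed in replicate 1 of the LPS group at a z-score of 13.9 and not in replicate 2, while the Dex libraries had 21.0, 26.4, 20.9 and 25.6. Without replicate 1 of the LPS group, region 10 would be a further Dex-only region.

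At the 3' end of the gene, region 11 (137072071 to 137074168) joined 2 neighbouring hotspots. The first had maximum densities of 6.69 and 5.21 under LPS alone, 13.6 and 19.0 in the pre-treated libraries and 14.0 in replicate 1 of the late-treated group. The second, on the higher side, was listed in both pre-treated libraries and in replicate 1 of the late-treated group, at z-scores of 18.2, 24.5 and 17.2, and neither LPS library listed it. In replicate 2 of the late-treated group a single hotspot of 1776 bp spanned both. The merged region therefore counts as listed in all 6 libraries, although 737 bp of it, from 137073087 to 137073824, were covered in all 4 Dex libraries and in no LPS library. When replicate 2 of the late-treated group was left out, this second hotspot became a Dex-only region.

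Counting bases in place of regions avoids such joins. In the window, 3831 of the 17717 bp covered by any library (21.6%) were covered in all 4 Dex libraries and in no LPS library, beside 0.382% of all covered bases in the genome. Of these, 2848 bp lay in the Dex-only regions of the cluster. Such regions were known when the window was proposed, so nothing is read from the difference to the genome here either. Bases covered in both LPS libraries and no Dex library came to 1044 bp (5.89%), close to the genome's 5.32%, and 619 bp of them were in region 16.

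Region 13, at 137076250 to 137078292, about 2.25 to 4.29 kb inside the gene from its 3' end, held the strongest hotspot of the window by z-score in both LPS libraries, in replicate 2 of the pre-treated and in replicate 1 of the late-treated group. From the approximate 5' end of the gene it lay 56.7 to 58.75 kb away. If start 3 marks that end, region 13 may hold start 1, which lies 57.9 kb from start 3 in GRCm38.p6. This placement was not tested. The maximum density of region 13 was 10.4 and 9.72 under LPS alone, 18.9 and 22.4 with Dex before LPS, and 30.01 and 24.8 with Dex late. By that measure region 9, at 12.04 and 11.1, was higher in both LPS libraries. Both late-treated values were above both pre-treated ones, and all 4 were above the LPS values. The hotspot was narrower with Dex: 1135 and 1006 bp under LPS alone, 983 and 970 bp with Dex before LPS, and 790 and 873 bp with Dex late. Narrower hotspots with Dex were common over all regions listed in all 6 libraries, of which 11.7% were wider with Dex. The ratio of mean width, Dex over LPS, had a median of 0.881 over those regions and was 0.844 at region 13. Region 12, at 137074640 to 137075609, was listed by replicate 2 of the pre-treated and of the late-treated group alone, at z-scores of 12.4 and 10.1. Over the genome 0.918% of regions had that pattern.

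No library listed a hotspot in the 55.1 kb between 137078292 and 137133424, which lie inside the gene. At the 5' end, region 14, at 137133424 to 137134265, was listed in all 6 libraries, at a z-score of 18.5 and 18.3 with LPS alone, 25.6 and 13.6 with Dex before LPS, and 21.7 and 10.2 with Dex late. By z-score the replicates of each Dex group lay further apart than the groups, with replicate 1 above and replicate 2 below the LPS values. Its maximum density was 7.69 and 6.25 in the LPS, 14.8 and 9.49 in the pre-treated and 10.8 and 8.41 in the late-treated libraries, so by density every Dex library was above both LPS libraries. Region 15, at 137134931 to 137136150, spans the approximate 5' end of the gene. The LPS lists gave it z-scores of 12.9 and 21.8, and, among the Dex lists, replicate 2 of the pre-treated group gave it 12.8. Without that library it would be LPS-only.

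Region 16, at 137148272 to 137149033, about 13.3 to 14.0 kb beyond the 5' end, was the LPS-only region of the window. Its z-scores were 23.7 and 15.8, at percentiles of 63.6 and 46.7, with maximum densities of 11.04 and 8.68. The Dex lists began at z-scores between 8.98 and 11.6 and held no hotspot there. The remaining member, region 2 at 137028048 to 137028494, was listed by replicate 1 of the pre-treated and replicate 2 of the late-treated group, at z-scores of 9.74 and 10.2, near the lower end of those lists.

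The 7 regions listed in all 6 libraries allow a comparison on 1 scale. Each maximum density was divided by the median of that library over the 25091 regions of the genome that all 6 libraries listed, which gives a relative maximum density of 1 for a typical shared region. The mean over the Dex libraries was higher than the mean over the LPS libraries at 7 of the 7 regions, by 1.57 to 2.74 times with a median of 2.43 times, where the median over all shared regions was 1.02 times and 55.1% of them were higher. Region 11 had the largest ratio, higher than 99.8% of shared regions, and regions 3 and 6 followed at 2.53 and 2.46 times. Regions 13 and 9 stood at 2.43 and 2.09 times. Regions 14 and 1, the outermost of the 7, had the smallest ratios, 1.59 and 1.57 times. These were still higher than those of 97.7% and 97.5% of shared regions. Since hotspot positions and z-scores of these libraries chose the window, nothing is read from these places among the shared regions. At regions 3, 6 and 11 both LPS values were also below those of every Dex hotspot listed anywhere in the window. A Dex hotspot listed at such a region would thus tend to be higher whatever its strength. The shared regions of the genome were not matched for LPS density, and how far list floors set these ratios was not tested. More cells with an open region and a wider opening in each cell cannot be told apart in such bulk data.

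**Figure D3:**
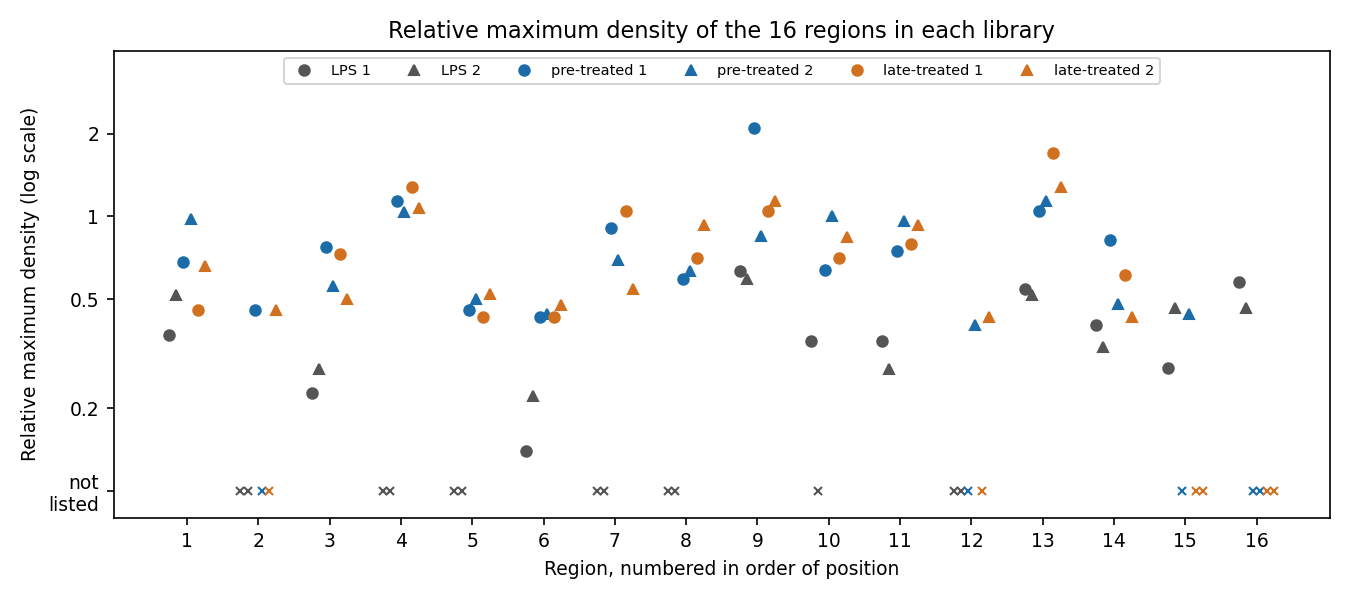
Points give the relative maximum density (log scale) of the strongest hotspot of each of the 16 regions in each library, circles for replicate 1 and triangles for replicate 2, and crosses mark libraries that did not list the region. At regions 3, 6, 9, 11, 13 and 14 every Dex point lies above both LPS points, and at region 1 they overlap.

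Every Dex library was above both LPS libraries at 6 of the 7 regions by relative maximum density, with region 1 as the exception, beside 8.94% of all shared regions. By z-score percentile this held at 2 of the 7, regions 3 and 6, beside 1.3%. Both LPS libraries were above every Dex library at 0 of the 7, where 30.2% of all shared regions had that order. A shorter list that keeps fewer weak hotspots gives shared regions lower percentiles, and every Dex list was shorter than either LPS list. Over all shared regions the percentile was lower with Dex by a median difference of -6.91, against a median difference of 4.58 in the window. How much of the difference over all shared regions comes from list length was not tested. At region 14 the scales differed in direction, with a percentile difference of -16.8 and a ratio of 1.59. The strongest hotspot was wider in every Dex library than in both LPS libraries at 4 of the 7 regions (3, 6, 9 and 11), beside 1.41% of shared regions. At region 11 this includes the joined hotspot of replicate 2 of the late-treated group. Nothing is read from the differences to these shares either, since values of these libraries chose the window. For relative maximum density, the limit given above for regions 3, 6 and 11 applies to the order of the libraries too.

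**Figure D4:**
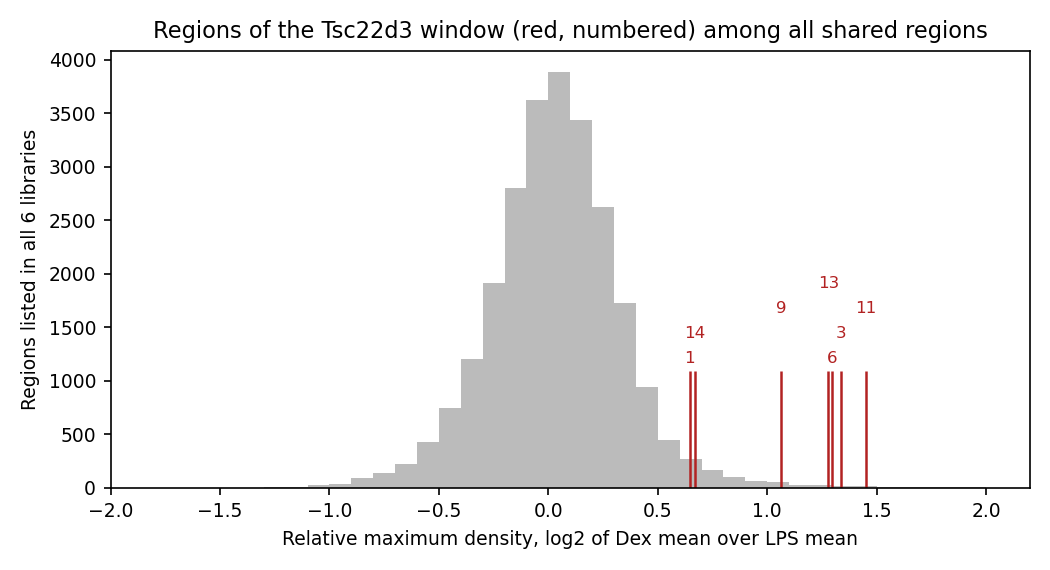
Grey bars count the 25091 regions listed in all 6 libraries by the log2 ratio of their relative maximum density, Dex mean over LPS mean, and red lines mark the 7 such regions of the window by number. All 7 red lines lie in the right tail, between ratios of 1.57 and 2.74. Nothing is read from their place, since the window was chosen by hotspots of these libraries.

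The timing of Dex was not used to propose the window, so the pre-treated and late-treated groups were compared with a test. Over the 12 regions that all 4 Dex libraries listed, the mean percentile was 57.7 and 60.8 in the pre-treated and 46.0 and 55.6 in the late-treated libraries, a difference of -8.45 (late minus pre). Both late-treated values were below both pre-treated values, and the exact permutation test (two-sided) gave p = 0.333, the smallest that 2 against 2 libraries can give, so this test cannot show a difference. Over all 25533 regions listed in the 4 Dex libraries the same difference was -3.35. Both differences moved with single libraries. Leaving out the shortest list (late-treated, replicate 1), the difference was -3.62 in the window and 3.91 over the 30130 regions that the remaining Dex libraries listed. Dropping pre-treated replicate 2 gave -6.90 in the window and 0.901 over all regions, dropping pre-treated replicate 1 gave -10.01 and -7.52, and dropping late-treated replicate 2 gave -14.01 and -10.5.

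The mean percentile was lower with late Dex at 11 of the 12 regions, beside 70.6% of the 25533, and higher at 1, region 13. By percentile the libraries did not overlap at 3 of the 12 (regions 1, 3 and 7), all of them lower with late Dex, beside 15.6% of all regions. At 0 of the 12 were both late-treated libraries higher, beside 3.1%. Relative maximum density, the scale set by the shared regions, gave another split: both late-treated libraries were higher at 2 of the 12 (regions 8 and 13), beside 14.6%, and both pre-treated libraries at 1 (region 1), beside 12.3%. The largest gap in percentile was at region 1, at 137026307 to 137027385, with percentiles of 56.8 and 69.9 in the pre-treated and 18.1 and 52.1 in the late-treated libraries. There the LPS libraries stood at 50.6 and 64.5. In percentile the 4 Dex-only regions differed by less, from -2.17 at region 4 to -9.18 at region 7.

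**Figure D5:**
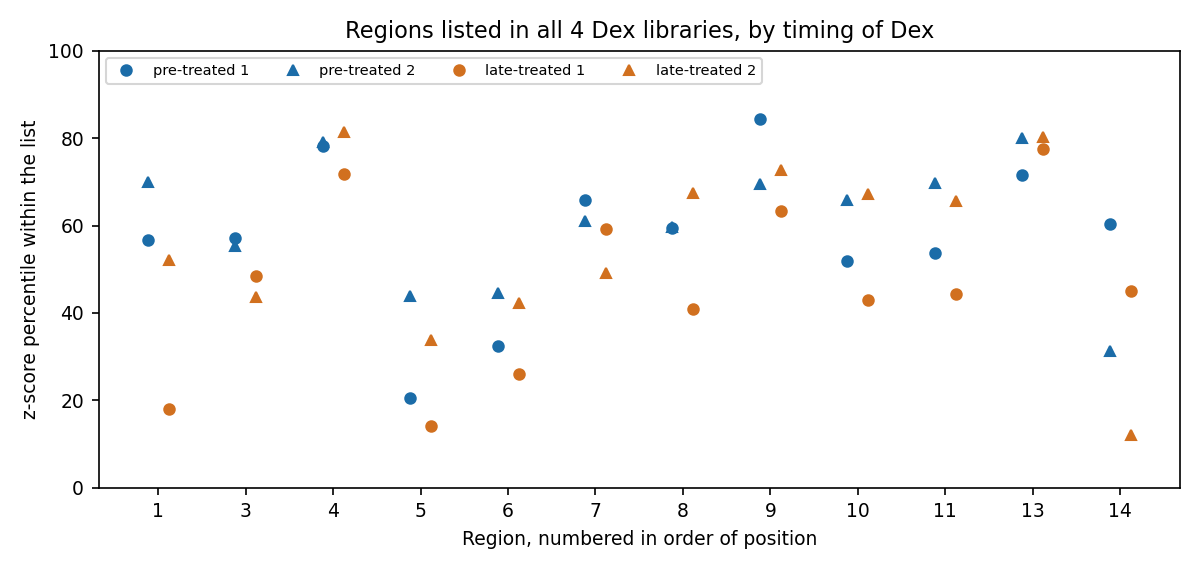
Points give the z-score percentile within the list at the 12 regions listed in all 4 Dex libraries, blue for the pre-treated and orange for the late-treated group, circles for replicate 1 and triangles for replicate 2. By this measure the groups overlap at 9 of the 12 regions, and region 4 lies between 71.8 and 81.3 in all 4 libraries.

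Dense groups of Dex-only regions were rare in these lists. Among 8079 stretches of 200 kb that held any region, 3 (0.0371%) held 4 or more Dex-only regions by their centres. These were the Tsc22d3 window, with 4 among its 16 regions, chromosome 19 from 23000000 to 23200000, with 5 among 9, and chromosome 13 from 60800000 to 61000000, with 4 among 11. The Tsc22d3 window was proposed because Dex-only regions lie in it, and the threshold of 4 is its own count. Nothing is therefore read from its place among these stretches.

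The regions whose percentiles over the 6 libraries were most like those of region 4 (smallest Euclidean distance, 0 where a library did not list a region) were all Dex-only. The nearest lay on chromosome 17 at 88980516 to 88981631, at a distance of 8.51, with percentiles of 79.1, 83.9, 65.1 and 83.5 in the 4 Dex libraries. Chromosome 1 at 13444232 to 13445401 followed at 8.54 and chromosome 17 at 28652382 to 28653776 at 8.67. Chromosome 12 at 26122852 to 26124365 stood at 9.81 and chromosome 6 at 50966198 to 50967271 at 10.2. The measure rests on 6 libraries and on values that already define the Dex-only class.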

How the data were processed

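Hotspots were deposited as 1 list per library. The submitters' processing notes name CASAVA and the build mm9. Which aligner and hotspot caller were used, and at which threshold, is not given in the sources used here. The deposited signal values are a maximum and an average tag density, the deposited score is a z-score, and the deposited p-value of a hotspot was not used, all per the file headers. The scaling of the densities is not stated and total tag numbers are unknown. Within a library the maximum density moved in equal steps (0.334 to 0.443, within 0.1 of a step). The lists held 29347 to 51834 hotspots. Positions are printed as the files give them.

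Hotspots of the 6 lists that shared 1 bp or more were joined into regions, and a library lists a region that any of its hotspots overlaps. A region's value in a library is that of its hotspot with the highest z-score. Percentiles rank hotspots within their list, with 100 as the strongest. All regions overlapping the window were described, those in all 4 Dex libraries library by library where the results turn on them. The regions and lists were chosen with earlier results of these data known. Merging and classes were tested on simulated data. The late-treated and pre-treated groups were compared with an exact permutation test over libraries. The labels do not say whether replicates are separate animals or cultures. SDs and p-values thus cover only the spread between libraries. The gene's mm9 position is approximate and was not read from an annotation. Promoters came from RefSeq, GRCm38.p6, matched by symbol (1 of 1). Alternatives were a common minimum z-score, merging across 500 bp, a cover of 50%, equal list lengths, the stronger 50% of hotspots, density ranks, a wider window, the replicate block and each library left out. Computation used Python 3.11.15 and pandas 2.3.3.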

Additional observations from a re-analysis of the deposited data

How the results depend on the processing

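With lists of equal length the mean number of hotspots in the window was 6.5 for LPS and 13.5 for the pre-treated group. In that setting 3 regions were in all libraries, and region 4 had a mean percentile of 71.5. The Dex-only regions were then 5, namely regions 3, 4, 6, 7 and 8, and region 5 was no longer among them. With the stronger 50% of each list the means were 5 (LPS), 10 (pre-treated) and 5.5 (late-treated), with 1 Dex-only, 0 LPS-only and 2 shared regions, 1 late-treated library (4 hotspots) below both LPS libraries (5 and 5), region 4 at 55.2, and 0 shared regions with every Dex library above both LPS libraries. A common minimum z-score gave a mean of 8 hotspots for LPS and 4 shared regions. These filters keep fewer hotspots by construction. Merging across 500 bp left 2 Dex-only regions, since regions 4 and 5 joined each other and region 7 joined region 6. A cover of 50% gave 2 LPS-only and 4 shared regions, 1 of them with every Dex library above both LPS libraries. By maximum density, region 4 stood at 70.0, and 5 of 7 shared regions had every Dex library higher; by relative maximum density, a choice made after seeing the data like the count of bases, it was 6. Region 4 was Dex-only in every alternative run.

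With each library left out in turn there were 4 to 5 Dex-only, 1 to 2 LPS-only and 7 to 8 shared regions, and 2 to 4 shared regions had every Dex library above the LPS libraries. The 2 LPS-only regions came without replicate 2 of the pre-treated group, and the 4 came when the late-treated replicate 1 was left out. The late minus pre difference kept its sign in 10 of the 10 alternatives that could change it, from -14.01 to -3.62. With lists of equal length it was -4.80. Blocking on the replicate number gave -8.45 (exact two-sided sign-flip p = 0.5, the smallest that 2 numbers allow). The deviations of same-numbered libraries correlated at 0.284 to 0.492 over shared regions, but the labels do not say what a shared number means. List length limits what can be seen: a region missing from a list was not detected at that list's depth, and its absence is not shown.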

Other observations

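Beyond the window the neighbourhood was sparse. The nearest region on the 3' side lay 7496 bp outside it, at 136990703 to 136992504, and was listed by 5 libraries at z-scores of 10.5 to 20.0, with replicate 1 of the late-treated group as the exception. On the 5' side the next region was 137314694 to 137315290, listed by 4 libraries at z-scores of 10.5 to 14.5. The region after it, at 137391884 to 137392333, was listed in replicate 2 of the LPS group alone, at 9.37. None of these 3 regions within 200 kb of the window was Dex-only. In RefSeq (GRCm38.p6) the protein-coding neighbours of Tsc22d3 are Prps1, an enzyme gene of nucleotide synthesis, on the 3' side and Mid2, a ubiquitin ligase gene, on the 5' side, and a lncRNA gene, Gm39538, lies between Prps1 and Tsc22d3.

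The weakest LPS hotspot of region 6 had a maximum density of 8 steps of its library, and the other LPS library had 12. The Dex libraries had 19, 23, 19 and 21 steps there. Whether a step stands for 1 tag is not stated.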
